A study of Mus musculus with 6 samples.

Results

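Crystallins are the soluble proteins that fill the fiber cells of the lens, and several of them are also made in the neural retina and in the retinal pigment epithelium (RPE). The 10 crystallin genes described here were chosen by gene symbol: Cryaa, Cryab, Cryba1, Cryba2, Cryba4, Crybb1, Crybb2, Crybb3, Crygs and Crygn. Each of the 10 has a row among the 33924 genes of the deposited table, and none is listed at 0. The RNA came from RPE/choroid of C57BL/6J mice, for which the labels name no transgene and no treatment, and was sequenced as poly(A)-selected libraries after removal of ribosomal RNA. The study compared 3 young with 3 aged mice, with both eyes of a mouse in a sample. Young mice are labelled as 1 to 2 months old. Aged mice carry 20 to 24 months in their titles and 22 to 24 months in a separate age entry, and all 6 mice are labelled male. The study's methods differ from the labels, describing a somewhat older young group and mice of both sexes.

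The eyecup was dissected by removing cornea, lens and iris, and also muscle, connective tissue and optic nerve. The neural retina was then peeled off before the pigmented layer was scraped from the sclera, so the sample is a mixture of tissue layers. Values of single mice were not analysed here, and the 1 measurement used for each gene is the authors' mean normalized count over the 6 libraries of both ages. The difference between young and aged mice, the spread between mice and the overlap of the age groups are therefore not reported, and each level below is the authors' mean with no SD. The mean normalized counts of all genes add up to 40816668.

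Crystallins fall into an alpha and a beta/gamma superfamily. The alpha crystallins are small heat shock proteins, chaperones that hold unfolding proteins in solution. The beta and gamma crystallins share a fold of Greek key motifs and act mainly as structural proteins of the lens, where beta crystallins assemble into oligomers and gamma crystallins stay monomeric. Outside the lens, Cryab is known from heart and skeletal muscle and from glia, Cryba1 from RPE and astrocytes, where it has been tied to lysosomal function, and Crygn from the retina.

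The genomic sequence in front of the crystallin genes is described first, because 1 short word recurs there. RefSeq promoter windows of GRCm38 were at hand for 9 of the 10 genes, all but Cryab, and the 250 bases before each transcript start were searched on both strands. The word TGCTGA, the core of the site that Maf family transcription factors recognize, was present in 8 of these 9 windows, and in 16.1% of all 32851 promoter windows of the same length. Crybb2 was the exception, and the word was also present in front of the alpha gene Cryaa and the gamma genes Crygs and Crygn. The TATA box word TATAAA was present in 3 of 9 windows, those of Cryba1, Crybb1 and Crygs, and in 12.4% of all windows. The related word TATATA, which can overlap the former, was present in Cryaa and Crygn and in 5.25% of all windows. GAANNTTC, a unit of the heat shock element, was present in 0 of 9 windows and in 6.69% of all windows. A matching word is not evidence of binding. In 5 of the 9 genes the 160 bases before the start hold no annotated exon. They are printed 5′ to 3′ on the gene's strand, with TGCTGA or its reverse complement and TATAAA in capitals. They lie at chr11:77725294-77725453 (Cryba1), chr1:74893144-74893303 (Cryba2), chr5:112252519-112252678 (Cryba4), chr5:113081585-113081744 (Crybb3) and chr5:113070118-113070277 (Crybb2), each on the minus strand. 
Cryba1: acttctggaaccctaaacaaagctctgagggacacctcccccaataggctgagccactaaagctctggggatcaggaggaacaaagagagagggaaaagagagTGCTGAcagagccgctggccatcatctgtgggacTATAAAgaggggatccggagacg
Cryba2: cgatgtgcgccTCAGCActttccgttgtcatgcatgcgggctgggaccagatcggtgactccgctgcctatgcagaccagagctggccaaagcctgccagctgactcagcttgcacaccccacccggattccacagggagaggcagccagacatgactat
Cryba4: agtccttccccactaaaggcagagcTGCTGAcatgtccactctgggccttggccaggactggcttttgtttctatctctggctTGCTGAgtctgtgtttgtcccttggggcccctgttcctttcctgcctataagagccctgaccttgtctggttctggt
Crybb3: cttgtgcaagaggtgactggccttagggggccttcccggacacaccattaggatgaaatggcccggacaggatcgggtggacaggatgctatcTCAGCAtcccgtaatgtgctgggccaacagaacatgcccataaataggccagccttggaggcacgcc
Crybb2: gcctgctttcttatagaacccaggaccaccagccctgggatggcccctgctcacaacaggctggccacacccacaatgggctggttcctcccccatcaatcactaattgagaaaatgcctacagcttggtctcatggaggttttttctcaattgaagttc

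All 10 crystallins were well detected in RPE/choroid. To compare genes, the mean normalized count was divided by the length in kb of the longest annotated transcript, and the result is termed the level per kb. The 10 levels per kb ran from 419 for Crygn to 6577 for Cryaa, with a median of 2205. The median gene among the 17973 genes of known length whose mean normalized count reached 10 had 213 per kb, and all 10 crystallins lay above it. Without division by length, 8 of the 10 lay above the median gene, and Crybb1 and Crygn lay below it. Crystallin transcripts are short, from 768 to 1419 bases against a median of 3034 bases over the same genes, so a given number of reads makes a higher level per kb. Together the 10 genes held 0.0659% of all normalized counts.

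The lowest values in the table show what a single read is worth. The 576 genes with a mean above 0 and below 0.2 take only 6 values, as many as there are libraries, between 0.157 and 0.174, while their transcripts range from 11 to 10299 bases. A read in 1 library thus adds about the same to the mean of a short and of a long gene, so the means themselves are not scaled to length. On that scale Cryaa rested on between 47908 and 53089 reads over the 6 libraries and Crygn, the least abundant of the 10, on between 1853 and 2053. How these reads divided among the mice cannot be seen from the mean.

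**Figure D1:**
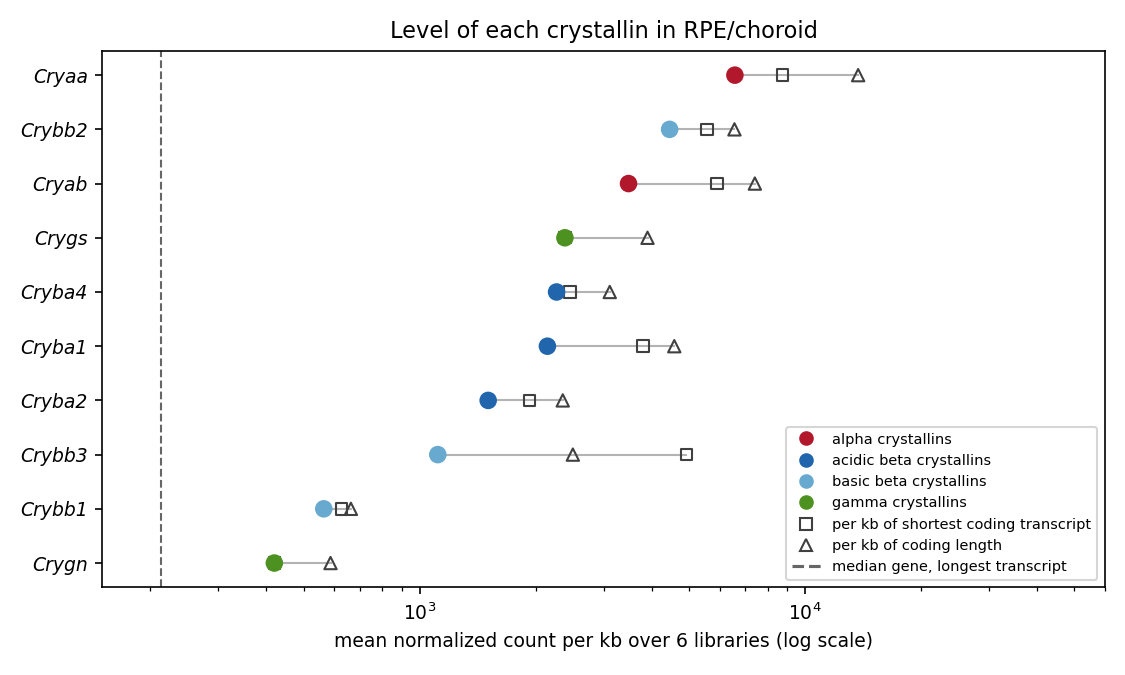
Level of each of the 10 crystallins as the authors' mean normalized count over 6 libraries per kb, on a log axis. Filled circles use the longest transcript, with color for the family, open squares the shortest coding transcript and open triangles the coding length, and the dashed line marks the median gene at 213 per kb. Cryaa is highest and Crygn lowest on each of the 3 scales, and Crybb3 moves most, from 1114 to 4924. The shortest coding transcript of Crybb3, which gives 4924, is shorter than its coding length.

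The alpha crystallins took the largest part, 45.4% of the counts of the 10 genes. Cryaa, which encodes alphaA crystallin and is known mainly from the lens, averaged 8327 normalized counts and was the most abundant crystallin. Its level per kb of 6577 placed it at percentile 97.0 of the genes compared. Cryab, which encodes alphaB crystallin, a stress-induced chaperone made in many tissues, averaged 3891 normalized counts and had a level per kb of 3483 at percentile 94.5. Cryaa stood 1.89 times as high as Cryab per kb, and 2.14 times as high with no division by length. In GRCm38, Cryaa (ENSMUSG00000024041.10) spans 31677807 to 31681733 of chromosome 17 and Cryab (ENSMUSG00000032060.10) spans 50751325 to 50756636 of chromosome 9, both on the plus strand. Hspb2, another small heat shock protein gene, lies head to head with Cryab on the minus strand, and its exons cover 17.0% of the exon bases of Cryab. An exon of an unnamed gene, AC090881.2, covers 13.2% of the exon bases of Cryaa on the opposite strand. The library kit keeps strand, but whether strand was used in the counting is not given in the sources used here. If it was not, reads from these stretches cannot be assigned to 1 gene.

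The acidic beta crystallins held 22.9% of the counts of the 10 genes, and their levels per kb lay closer together than those of the basic beta or the gamma crystallins. Cryba4 averaged 1831 normalized counts and had a level per kb of 2266. Cryba1, whose transcript encodes both betaA3 and betaA1 crystallin from different start codons, averaged 2953 normalized counts and had a level per kb of 2145. Cryba2 had 1389 normalized counts and a level per kb of 1505. The order of Cryba4 and Cryba1 depends on the length used, since the longest Cryba1 transcript, of 1377 bases, is annotated as a retained intron. The longest Cryba2 transcript, of 923 bases, is also not its 1 coding transcript, of 720 bases, per kb of which Cryba2 had 1930. Per kb of coding sequence Cryba1 had a level of 4579, against 3113 for Cryba4 and 2351 for Cryba2. Cryba1 (ENSMUSG00000000724.10) spans 77718615 to 77725283 of chromosome 11 on the minus strand, inside the span of Nufip2, which is read from the plus strand. No exon of another gene covers an exon of Cryba1, and this was so for each of the 3 acidic genes.

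The basic beta crystallins held a similar part, 22.7%, with the widest differences. Crybb2, the main beta crystallin of the lens and also known from retinal neurons, averaged 4034 normalized counts and had a level per kb of 4453, the second highest of the 10. Crybb3 had 1581 normalized counts and a level per kb of 1114. Crybb1, with a long amino-terminal extension, had 497 normalized counts and a level per kb of 564. Crybb2 was thus 7.90 times as high per kb as Crybb1 and 2.55 times as high as Crybb3 with no division by length. Crybb3 has 8 coding transcripts from 321 bases upward, and the shortest cannot hold its longest coding sequence of 633 bases. Its level was 1114 per kb of the longest transcript and 2497 per kb of coding sequence. The 4924 per kb of the shortest coding transcript rests on that partial model.

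Crystallin genes adjoin each other in a pair of places on chromosome 5. Cryba4 (ENSMUSG00000066975.12, minus strand, 112246493 to 112252518) and Crybb1 (ENSMUSG00000029343.17, plus strand, 112255815 to 112269585) point away from each other with 3296 bases between them. Cryba4 stood 4.02 times as high as Crybb1 per kb and 4.70 times as high per kb of coding sequence. TGCTGA was found in front of both, 77 bases before the start of Cryba4 at the nearest and 84 bases before that of Crybb1. Crybb2 (ENSMUSG00000042240.14, 113058258 to 113070117) and Crybb3 (ENSMUSG00000029352.14, 113075839 to 113081584) lie in tandem on the minus strand with 5721 bases between them. Crybb2, whose printed window holds none of the words searched, was the higher of this pair. The ratio was 3.998 times per kb of the longest transcript, 2.63 times per kb of coding sequence and 2.55 times with no division by length. Per kb of the shortest coding transcript it was 1.13 times, but that transcript of Crybb3 is shorter than its coding length. The size of this difference thus rests on the length used.

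The gamma crystallins held the remaining 8.94%. Crygs, which encodes gammaS crystallin of the outer lens fibers, averaged 2084 normalized counts and had a level per kb of 2381 at percentile 92.0. Crygn, which encodes gammaN crystallin, a protein between the beta and gamma groups, averaged 322 normalized counts and had a level per kb of 419 at percentile 65.1. Crygs stood 5.68 times as high as Crygn. Crygs (ENSMUSG00000033501.5) lies on chromosome 16 from 22805203 to 22811577 and Crygn (ENSMUSG00000038135.4) on chromosome 5 from 24751003 to 24758008, both on the minus strand.

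In falling order the levels per kb were those of Cryaa, Crybb2, Cryab, Crygs, Cryba4, Cryba1, Cryba2, Crybb3, Crybb1 and Crygn. The ratio between neighbors was smallest for Crygs over Cryba4, at 1.05, and for Cryba4 over Cryba1, at 1.06, and largest for Crybb3 over Crybb1, at 1.98. Which of these neighbors differ by more than the spread between mice cannot be said from 1 mean per gene. Of the 50-base words in the longest transcript of each gene, 100% occurred in the same direction in the transcripts of no other gene. Reverse complements were not searched, so this count leaves out the opposite-strand overlaps of Cryab with Hspb2 and of Cryaa with AC090881.2.

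**Figure D2:**
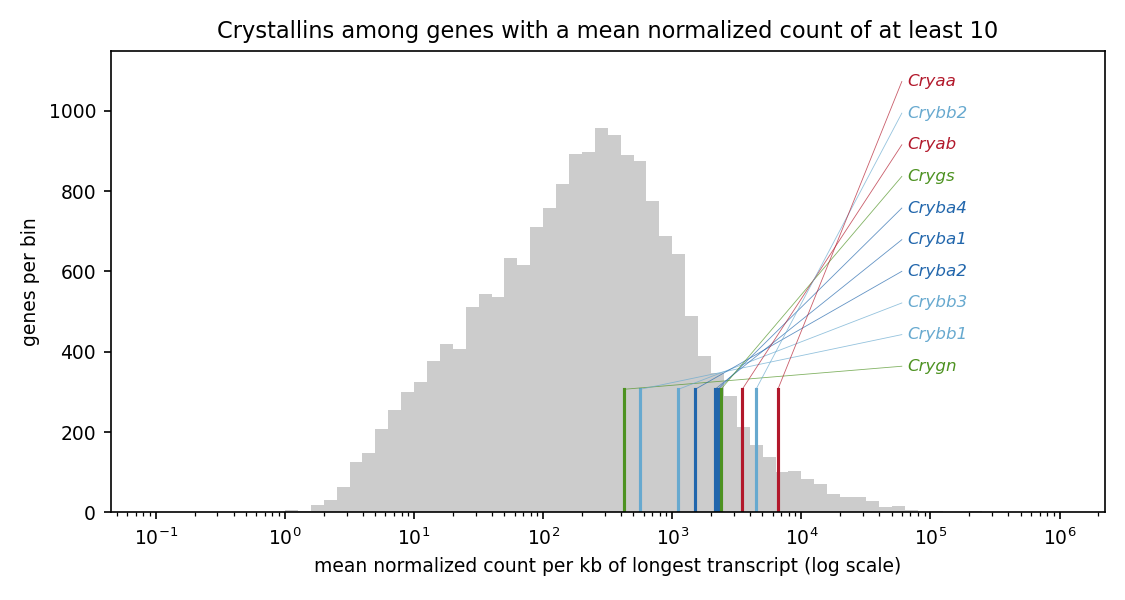
Number of genes in each bin of the level per kb of the longest transcript, on a log axis, for the 17973 genes of known length whose mean normalized count reached 10. Colored lines mark the 10 crystallins, with the colors of the families, and all lie to the right of the median of 213, from Crygn at percentile 65.1 to Cryaa at percentile 97.0.

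The remaining lens gamma crystallins, encoded on chromosome 1, were also present. Cryga to Cryge lie between 65048554 and 65103373 on the minus strand. Crygf lies apart from them at 65926520 to 65928307 on the plus strand. Crygb had a level per kb of 3151, Crygc of 2406, Crygd of 1947 and Cryge of 1625, which lies within the range of the 10 genes. Crygf, at 234, and Cryga, at 27.0, were lower. The 6 genes together had a summed mean normalized count of 6396, 23.8% of the sum of the 10 crystallins. The share of 50-base words found in no other gene ran from 53.5% in Cryge to 76.0% in Crygc. Reads from the shared stretches may be split among genes, so the single levels are uncertain. Cryga shared most words with Gm28845, 301 of its 668.

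Of the 8 other genes with Hspb symbols, grouped here by name, 4 lay above the median gene per kb, among them Hspb11 with 294. Hspb8 was highest with 2833 per kb, below both alpha crystallins, followed by Hspb1 with 2040 and Hspb2 with 590. Per kb of coding sequence Hspb8 had 8750, between Cryab with 7411 and Cryaa with 13741. Cryaa and Cryab together had 12217 normalized counts, against 8726 for the 8 genes. Among genes with related names, Cryz, a quinone reductase, had a level per kb of 976, Cryzl1 of 959 and Crym, which binds thyroid hormone, of 423.

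Transcription factors known to act on crystallin promoters were mostly near or below the median gene. Pax6, which is made in RPE and retina as well as lens, had a level per kb of 1116, Mafg of 359 and Maf of 224, and these 3 of 12 genes lay above the median gene. Foxe3, a lens epithelium factor, had a mean normalized count of 0.661, Pitx3 one of 16.3 and Prox1, which is needed for fiber elongation, one of 58.0. Sox1, the other gene listed, has no row under that symbol and so was not analysed here.

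**Figure D3:**
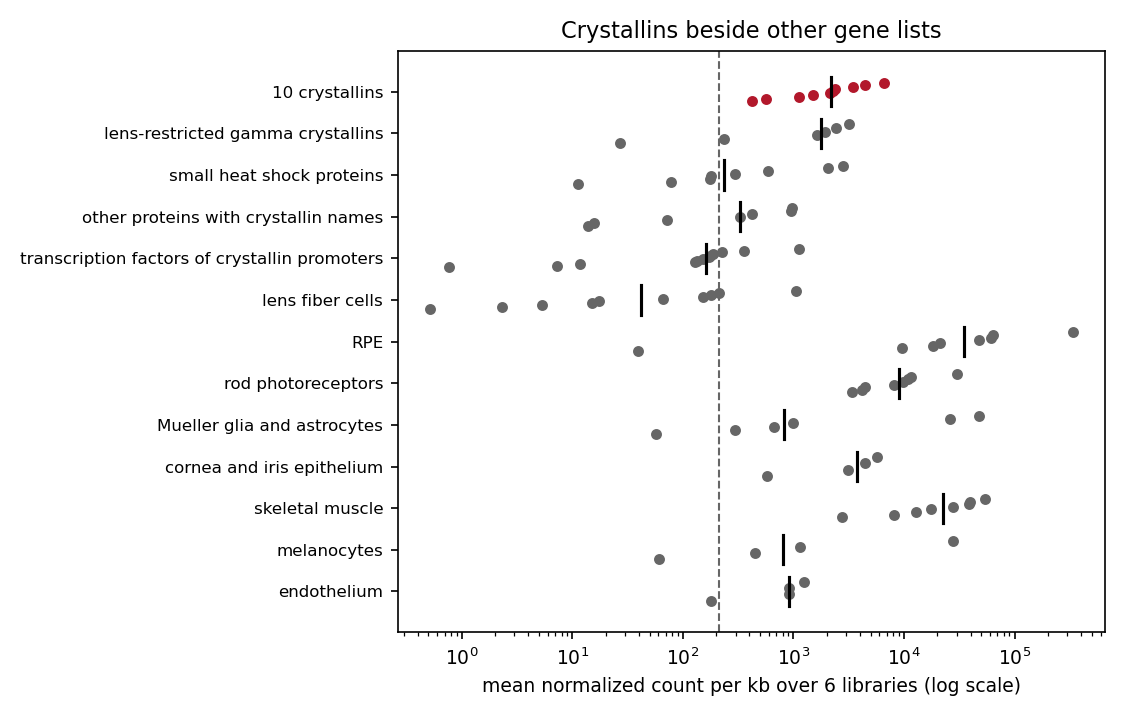
Level per kb of the longest transcript, on a log axis, for the 10 crystallins in red and for 12 other gene lists in gray, with 1 point per gene, a black bar at each list's median and a dashed line at the median gene of 213. The crystallins have a median of 2205 and the lens fiber list 41.5, while the RPE, rod and muscle lists have medians of 34564, 8974 and 22747.

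Most other genes of lens fibers were far lower than the crystallins. Of 10 lens fiber genes none was listed at 0, their median level per kb was 41.5, and 1 of them lay above the median gene. That gene was Bfsp2, a beaded filament protein, with a level per kb of 1061. Lim2 had 211 and Bfsp1, the partner of Bfsp2 in the beaded filament, had 181. Mip, the main membrane protein of lens fibers, averaged 37.1 normalized counts and had a level per kb of 17.3, and the lens gap junction gene Gja3 had a level per kb of 5.34. On this scale Bfsp2 was above Crybb1 and Crygn and below the other 8 crystallins. With no division by length, where Bfsp2 averaged 1764 normalized counts, it was also above Cryba2 and Crybb3. Per kb of coding sequence Lim2, with 885, was above Crybb1 with 663 and Crygn with 587.

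Of 8 RPE markers 7 lay above the median gene, with a level per kb of 61154 for the isomerase Rpe65, 335233 for Ttr and 63232 for Rgr, while the chloride channel gene Best1 had 39.3. Most listed genes of adjoining tissues lay above the median gene as well. All 8 rod genes lay above the median gene, among them Prph2, a structural protein of outer segment discs, with a level per kb of 11670 and Gnat1, the rod transducin, with 10858. All 8 skeletal muscle genes did so too, with Mylpf at 54080, Tnnt3 at 39379 and Pvalb at 38962. The corneal genes Aldh3a1 and Krt12 had levels per kb of 5677 and 4409, and all 4 genes of cornea and iris epithelium lay above the median gene. So did 5 of 6 glial, 3 of 4 melanocyte and 3 of 4 endothelial genes. Rlbp1, with 47916, is counted in both the glial and the RPE list, so these lists are not separate. The glial genes Glul and Gfap had 26320 and 988, but Kcnj10 had 57.4. The melanocyte gene Mlana had 28044, but Kit had 61.2. The endothelial gene Kdr had 1244, but Cdh5 had 179. Whether lens, retina, muscle or RPE supplied the crystallin transcripts was not tested. In a bulk sample, few cells with much of a transcript and many cells with little of it cannot be told apart.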

How the data were processed

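The authors sequenced poly(A)-selected RNA from RPE/choroid of 6 mice, 3 of each age group, as read pairs. Per the labels and the paper's methods, read pairs were trimmed with BBDuk, mapped with STAR to GRCm38 transcripts, quantified with Sailfish, scaled to total counts and compared with DESeq2 (version not given in the sources used here). The value used here is the deposited mean normalized count of each gene over the 6 libraries, a signal that the authors averaged. The deposited fold changes, standard errors, Wald statistics and p-values, 5 columns, are the authors' own comparison of the ages and were not used. With no values per library, the planned test between ages was not run.

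Lengths and positions came from GENCODE M21 (GRCm38), matched by symbol or unique RefSeq synonym for 97.3% of the 18479 genes with a mean of at least 10. Levels were divided by the longest transcript, and percentiles were taken among the 17973 genes with a length. Other lengths, filters and denominators were tried. Promoter sequences are RefSeq's (GRCm38.p6). The percentile was tested on simulated data. The length scaling was checked only by multiplying and dividing by the same lengths, which could not fail. The sequence searches were not tested. Computations used Python 3.11.15, numpy 2.4.6, pandas 2.3.3 and matplotlib 3.10.9. Every member is named, and of each other list up to 3 genes highest per kb, apart from items not reported here. Other genes named were chosen after their values were seen. The members and lists were chosen with earlier results of these data known, and the promoter words after the levels were seen.

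A read in 1 library adds between 0.157 and 0.174 to a mean. The 6 libraries were thus scaled by factors within 1.11 times of each other. The summed means stand for between 234837364 and 260233555 reads assigned to genes. Reads not assigned to a gene are not in this number, and a read pair may count as 1 read. Which library has which factor, the depth of single libraries and the spread between mice are unknown.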

Additional observations from a re-analysis of the deposited data

How the results depend on the processing

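The 10 crystallins held 0.0659% of all normalized counts, 0.0715% when the 10 most abundant genes were left out of the sum, and 0.116% when values per kb were summed. The first change follows from the smaller sum. The second combines the short crystallin transcripts with a sum over only the 31054 of 33924 genes that have a length, and these were not separated. All 10 lay above the median gene among genes with a mean of at least 10 and among all genes above 0, and 8 did with no division by length. Over the choices of which genes to compare with, the percentiles ran from 65.1 to 97.0 with a minimum mean of 10, from 74.0 to 97.8 with all genes above 0 and from 55.7 to 96.2 with a minimum mean of 100. Cryaa was highest and Crygn lowest under the longest transcript, the shortest coding transcript, the coding length and no division by length, while the order of the genes between them changed. No paired analysis was possible because the values of single mice were not analysed. For the same reason the planned replicate block, leaving out each replicate and other scalings were not run. A single mouse with high crystallin levels would not be seen in these means.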
